A study of Mus musculus with 2 samples.

Results

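The steroid hormone receptors are nuclear receptors that bind a steroid and then act as transcription factors. Esr1 and Esr2 encode the oestrogen receptors alpha and beta, Pgr the progesterone receptor, Nr3c1 the glucocorticoid receptor and Nr3c2 the mineralocorticoid receptor. Without hormone they are held by heat shock protein chaperones, and with hormone they bind response elements in DNA and recruit coregulators. In mouse reproductive tract the oestrogen and progesterone receptors are prominent in stromal cells as well as in epithelium, and the glucocorticoid receptor is present in most tissues. The 5 genes, set here beside 20989 features tested, were taken by name, with every probe the array carries for them, which gave 9 of 39429 probes and 18 spots. The group was selected on its log2 ratios on these same arrays, so the Rbpj-cKO to control ratios of the receptors are described here and not tested.

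Ureters of NMRI mouse embryos at E18.5 were compared on 2 two-colour arrays. The Rbpj-cKO embryos had the genotype Tbx18(cre/+);Rbpj(fl/fl), and the control embryos had Rbpj(fl/?), with no cre listed. Rbpj is the transcription factor of the Notch pathway. The cre sits in 1 Tbx18 allele, a gene of the early ureteric mesenchyme, so the urothelium is not the layer targeted, and the changed Tbx18 allele goes together with the loss of Rbpj. One array carried Rbpj-cKO and control RNA of male embryos, with Rbpj-cKO in red, and the other carried RNA of female embryos, with Rbpj-cKO in green. Sex and dye orientation therefore cannot be told apart. The number of embryos behind each RNA is not stated in the labels, so any p-value rests on the spread between these arrays. For each gene limma draws that spread towards the one over all features.

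On the 4 channels 66.8% to 71.1% of probe spots were well above background and none was saturated. With 2 arrays the precision is low. Levels below are intensities after background correction and loess normalization within each array, given for the male and then the female array. They are compared within a probe only. They were not scaled between the arrays, so whether the groups overlap describes the values only. The ratio within each array carries the comparison. Ratios are log2 values, Rbpj-cKO over control, and means are taken over both arrays (n = 2). Urothelial and smooth muscle markers were well measured, with 18 of 18 and 10 of 10 genes above background. Rbpj had ratios of -1.58 and -0.93 at its brightest probe (mean -1.25, SD 0.46, n = 2; limma adjusted p = 0.0760), and Tbx18 had -0.11 and 0.47. The labels do not say whether the Rbpj probe lies in the deleted part, so its value does not check them.

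The probes of the receptors are 60-base oligonucleotides, and the files place them on mm9 without naming exons or untranslated regions. Their sequences are shown because the probes of 1 gene differed in brightness and in ratio. Esr1 had 3 probes on the minus strand of chromosome 10. Probe 1, the brightest, lies at chr10:5343056-5343115 and has a stop codon in each of its 3 forward reading frames. Probe 3 lies at chr10:5345046-5345105, 1990 bases away. Probe 2 lies at chr10:5489352-5489411, 146296 bases away, and its frame without a stop codon is part of the ligand-binding domain of the receptor. The Esr2 probe lies at chr12:77221426-77221485 (minus strand). The brighter Pgr probe lies at chr9:8968492-8968551 and the other, which reads through the ligand-binding domain, at chr9:8961434-8961493 (both plus strand). The Nr3c2 probe, at chr8:79766370-79766429 (plus strand), ends with the stop codon of the receptor. The Nr3c1 probes are not shown. Capitals mark 1 stop triplet of Esr1 probe 1 and the stop codon of the receptor in Nr3c2, and other stop triplets are not marked. For the probes not known to be coding the first 30 bases are given, each 5′ to 3′.
Esr1 probe 1: ttttttgTAGacgtttcaaactaccgtgtc
Esr1 probe 2: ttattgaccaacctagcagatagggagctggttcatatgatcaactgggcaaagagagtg
Esr1 probe 3: tccccgaaaggttctgagaatccctgcaac
Esr2: ttaagagtgccacttcccatgggccaagca
Pgr probe 1: gtgtataaacacatggcatgtttagttagg
Pgr probe 2: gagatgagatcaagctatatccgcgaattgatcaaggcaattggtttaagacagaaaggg
Nr3c2: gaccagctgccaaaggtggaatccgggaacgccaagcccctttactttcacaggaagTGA

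Esr1 stood out among the receptors, with more signal in Rbpj-cKO ureters on both arrays. Its brightest probe had levels of 837 and 633 in Rbpj-cKO ureters, against 248 and 333 in control ureters. Both Rbpj-cKO values lay above both control values, and the gap was wider on the male array. The ratios were 1.76 and 0.93 (mean 1.34, SD 0.59, n = 2), which is 3.38-fold on the male and 1.90-fold on the female array. In these bulk samples, more cells that express Esr1 and more Esr1 RNA per cell cannot be told apart. Agilent's processed signals, which carry no added offset, gave Esr1 6.87-fold on the male and 2.20-fold on the female array (log2 2.78 and 1.14). The size of the difference thus depended on the background correction and on the array, while its direction did not.

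**Figure D1:**
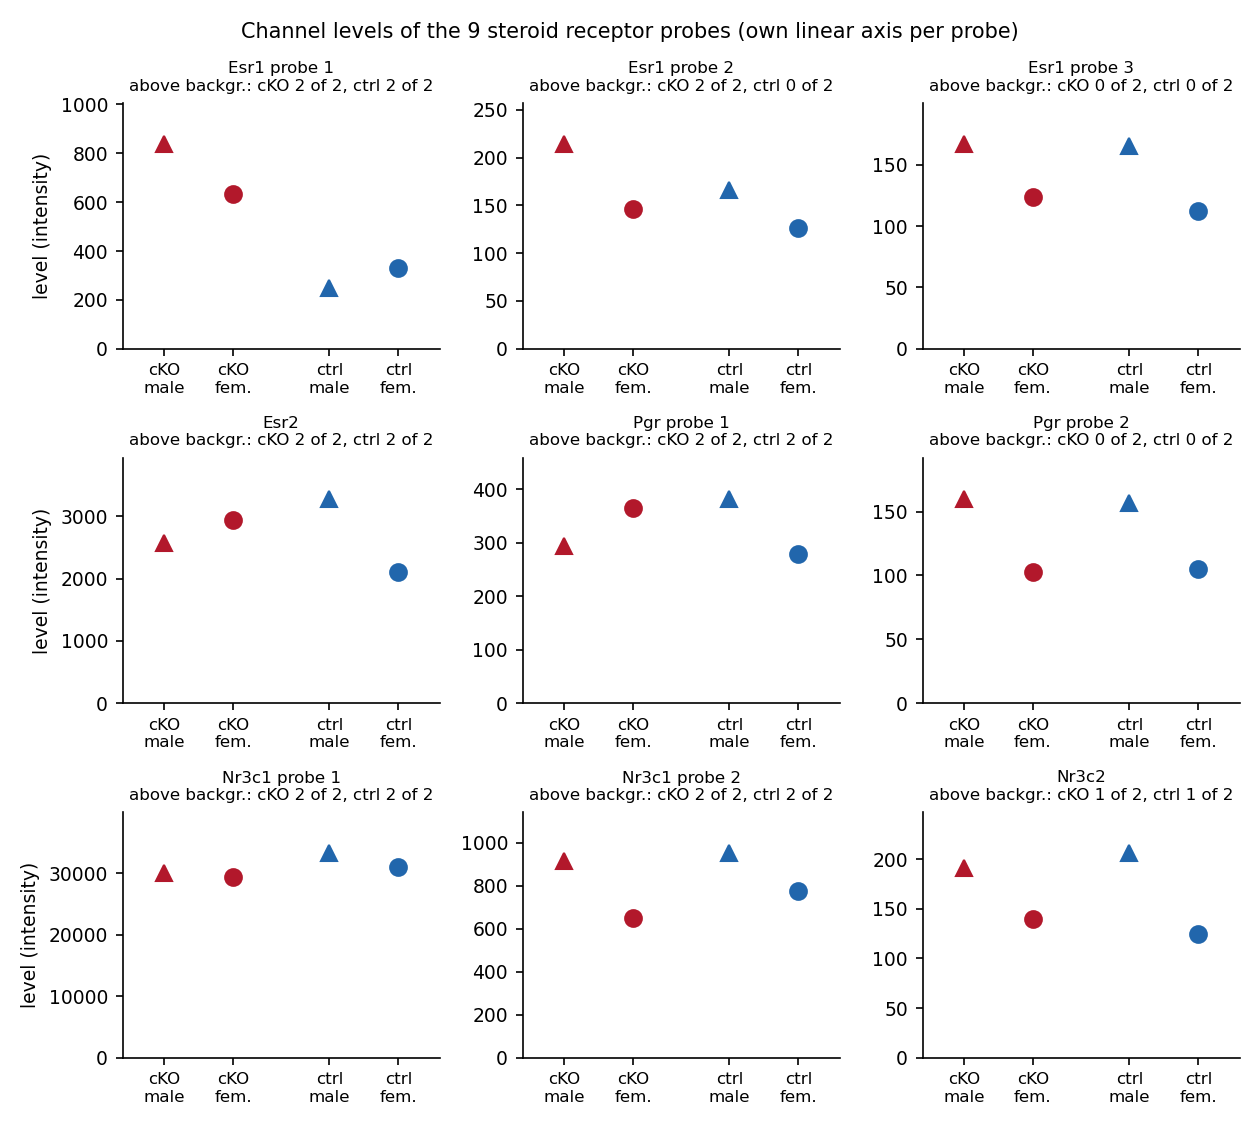
Level of each of the 9 receptor probes (intensity after normexp and loess, own axis from 0 per panel) in Rbpj-cKO and control RNA of the male array (triangles) and the female array (circles), with the number of arrays on which the probe was well above background. In Esr1 probe 1 both Rbpj-cKO points lie above both control points, at 837 and 633 against 248 and 333.

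The brightest Esr1 probe is printed 10 times on each array, which shows how well a single hybridisation measured it. On the male array its 10 spots ran from 728 to 968 (median 844) in Rbpj-cKO RNA, and from 219 to 271 (median 251) in control RNA. On the female array they ran from 474 to 722 (median 649) in Rbpj-cKO RNA, and from 290 to 385 (median 327) in control RNA. No Rbpj-cKO spot overlapped a control spot of either array. The spot ratios ran from 1.60 to 1.91 on the male and from 0.71 to 1.13 on the female array, so the arrays differed from each other by more than the spots of either array did. Spots of 1 array share their RNA and are not replicates of the genotype.

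**Figure D2:**
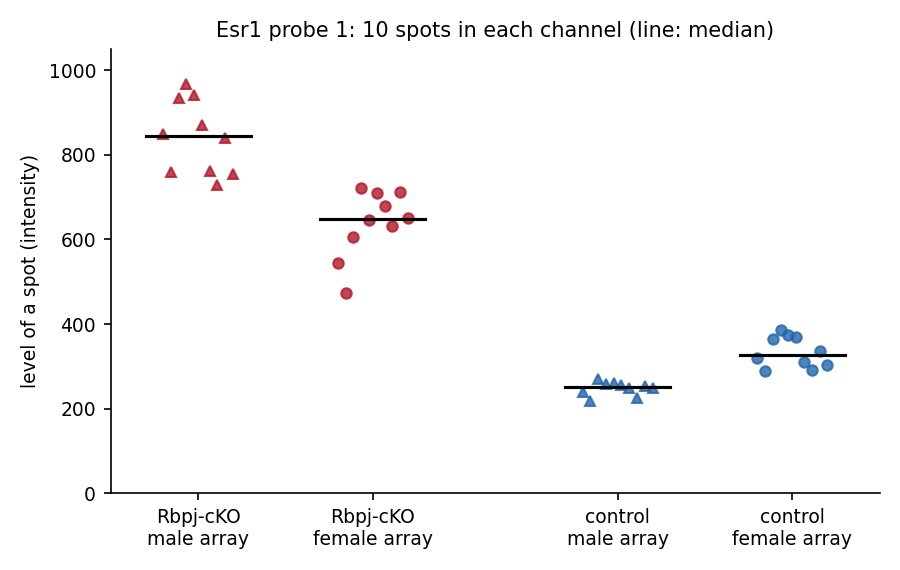
Level (intensity after normexp and loess) of the 10 spots of Esr1 probe 1 in each channel, with the median as a line. The lowest Rbpj-cKO spot, 474 on the female array, lies above the highest control spot, 385 on the same array.

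The dimmer Esr1 probes gave smaller ratios. Probe 2, in the coding sequence, had levels of 214 and 147 in Rbpj-cKO ureters, against 166 and 126 in control ureters. It was well above background in Rbpj-cKO RNA on 2 of 2 arrays and in control RNA on 0 of 2. Its ratios were 0.36 and 0.22, on average 1.22-fold higher in Rbpj-cKO ureters. The size of this difference is uncertain at such low control signal. Probe 3 had levels of 167 and 123 in Rbpj-cKO ureters, against 165 and 112 in control ureters, and was not well above background in any channel. The values near 100 to 200 include the offset of 50 that the background correction adds, which draws the ratio of a dim probe towards 0. In Agilent's processed signals probe 2 had 22.1 and 15.5 in Rbpj-cKO ureters, against 9.49 and 7.71 in control ureters, with ratios of 1.22 and 1.01. There probe 3 had ratios of 0.48 and 1.07, from signals of 10.9 or less. Probes 1 and 2 were above 0 on both arrays in both processings, and in the series table probe 2 had 0.48 and 0.17. Only probe 1 was well above background in the control channels. Probe 2 was kept through its Rbpj-cKO signal alone, so its direction is no separate support for that of probe 1. The sign of probe 3 moved with the processing, with -0.12 on the male array under median centring and 0 on both arrays in the series table.

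The other oestrogen receptor, Esr2, went opposite ways on the arrays. Its single probe had levels of 2572 and 2941 in Rbpj-cKO ureters, against 3282 and 2107 in control ureters. The groups overlapped, and the ratios were -0.35 for male and 0.48 for female ureters (mean 0.06, SD 0.59, n = 2). Read as red over green, the same values are -0.35 and -0.48, so the green channel was brighter on both arrays whichever genotype it held. The part of the dye in this result was not tested.

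Pgr, a gene that oestrogen receptor alpha induces in uterus, had the same kind of pattern. Its brighter probe had levels of 293 and 364 in Rbpj-cKO ureters, against 382 and 280 in control ureters. The ratios were -0.38 and 0.38 (mean 0.00, SD 0.54, n = 2), and as red over green they were -0.38 on each array. The Pgr probe in the coding sequence had levels of 160 and 103 in Rbpj-cKO ureters, against 157 and 105 in control ureters, and was not well above background in any channel. Neither Pgr probe thus had a difference with the same direction on both arrays: in Agilent's processed signals the brighter probe had -0.56 and 0.36, and the dimmer one 1.15 and -0.48.

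Nr3c1, on chromosome 18, was the receptor whose arrays were closest to each other. Its brighter probe had levels of 30000.5 and 29308 in Rbpj-cKO ureters, against 33225 and 31074 in control ureters. Both Rbpj-cKO values were below both control values, by 1.11-fold on the male and 1.06-fold on the female array (ratios -0.15 and -0.08, mean -0.12, SD 0.04, n = 2). The direction on a single array depended on the scaling, with 0.22 and -0.37 under median centring and -0.15 and 0.07 in Agilent's processed signals. The second Nr3c1 probe had levels of 918 and 651 in Rbpj-cKO ureters, against 951 and 776 in control ureters, where the groups overlapped, with ratios of -0.05 and -0.25.

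Nr3c2 was at the edge of detection. Its probe had levels of 191 and 140 in Rbpj-cKO ureters, against 206 and 125 in control ureters, and the ratios were -0.11 and 0.16 (mean 0.03, SD 0.19, n = 2). It was well above background in green on 2 of 2 arrays and in red on 0 of 2, so in each genotype on 1 array, and it was not among the features tested. A difference in Nr3c2 was not detectable at this signal.

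**Figure D3:**
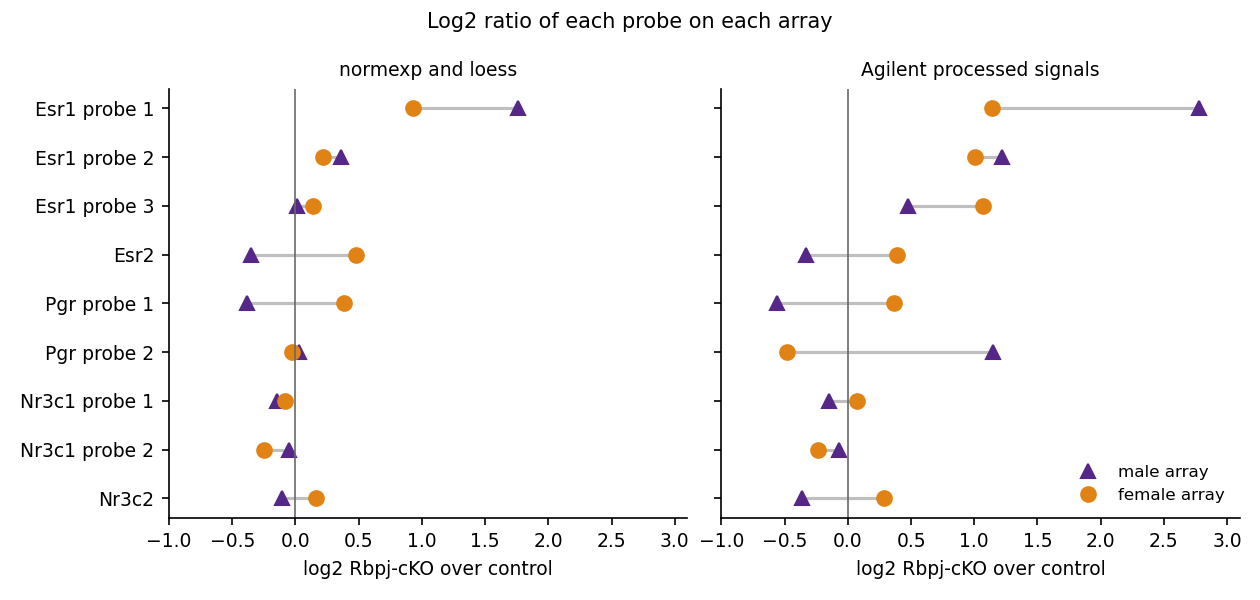
Log2 ratio of Rbpj-cKO over control of each receptor probe on the male array (triangles) and the female array (circles), after normexp and loess (left) and in Agilent's processed signals (right). Esr1 probes 1 and 2 lie above 0 on both arrays in both panels, and Esr2 and both Pgr probes lie on either side of 0.

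Set in all features, 4 of the 5 receptors were measured and 0 passed limma with Benjamini-Hochberg adjustment at 0.05, where 27 of 20989 features (0.129%) did, 9 of them higher (0.0429%) and 18 lower (0.0858%) in Rbpj-cKO ureters. Esr1 was 1 of 43 features (0.205%) with a difference of at least 1.5-fold upward on each array, and 91 (0.434%) were as much lower. Since the receptors were grouped with these ratios known, nothing is read from these counts. The ratio had the same sign on both arrays for Esr1 and Nr3c1, and for 41.4% of features. Opposite differences of at least 1.5-fold were seen for 218 features (1.04%), and Pearson's r of the arrays' ratios across features, which are not independent replicates, was -0.18. The SD between arrays was at least as large as that of Esr1 for 7.40% of features, and for 7.31%, 9.24% and 87.7% for Esr2, Pgr and Nr3c1.

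The features whose pair of ratios lay nearest to that of Esr1, over the 2 arrays, were spread wide. By Euclidean distance on the log2 scale they were Six2 at 0.28 (ratios 1.48 and 0.86), Tac1 at 0.37 (1.41 and 0.79), Cntn6 at 0.41 (1.57 and 1.29) and Cyp2e1 at 0.46 (1.47 and 1.28). Six2 is a transcription factor of nephron progenitors, Tac1 encodes substance P, Cntn6 a neural adhesion molecule and Cyp2e1 a cytochrome P450. None of the 20989 features lay within 0.25 of Esr1 (0 features), while 6208 lay within 0.25 of Nr3c1, so that its nearest features, Abl2, Pth1r, Yod1, Svbp and Prkcq (each within 0.00455 of it), are a few of very many.

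**Figure D4:**
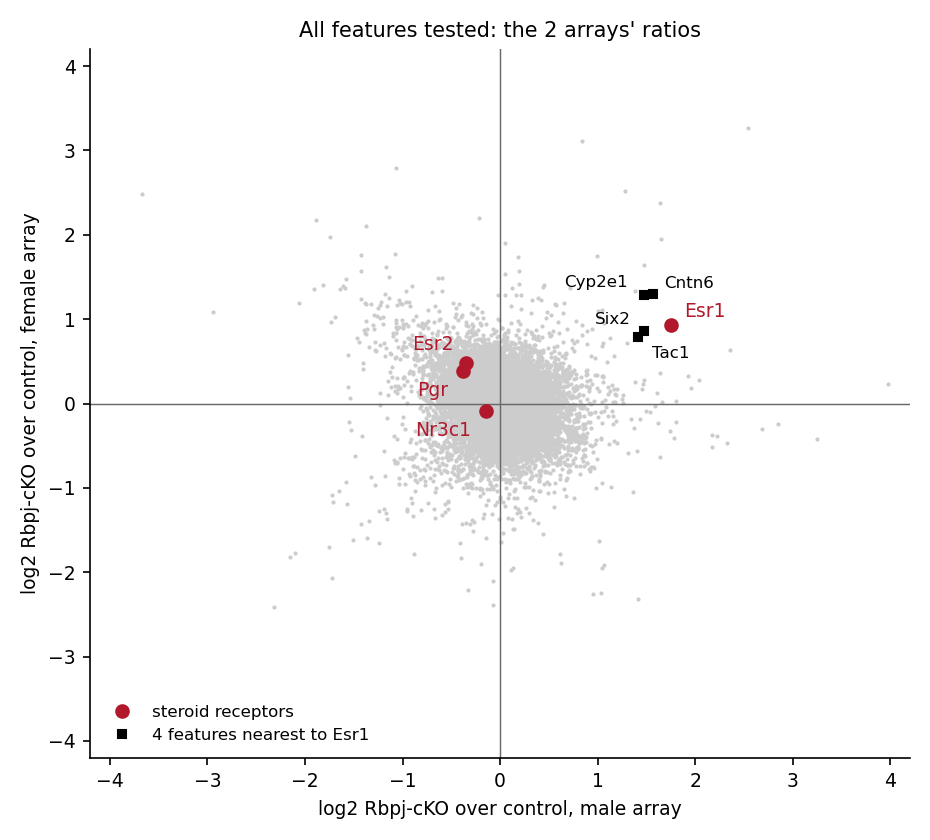
Log2 ratio of each of 20989 features on the male array (x) and the female array (y), with 4 receptors in red and the 4 features nearest to Esr1 in black (1 feature lies outside the plotted range). Esr1 lies at 1.76 and 0.93 with no feature within 0.25, Esr2 and Pgr lie left of and above 0, and Nr3c1 lies in the dense centre.

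Among the other steroid receptors and the membrane receptors for steroids, all 10 genes were measured and 0 passed the test. The median of their mean ratios was 0.03, beside 0.01 over all features. Paqr5, a membrane progestin receptor, had a mean of 0.33 at one probe and 0.43 at the other, while its relative Paqr8 had -0.18 and the orphan receptor Esrrg had -0.25. Of 38 other nuclear receptors 29 were measured and 0 passed (median 0.08). The highest were the oxysterol receptor Nr1h3 at 0.32 and the thyroid hormone receptor Thrb at 0.28. The lowest were Nr4a2 at -0.39, whose second probe had 0.07, and the clock repressor Nr1d2 at -0.30 (-0.75 and 0.15).

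Of 28 chaperones and coregulators of the receptors 27 were measured, 0 passed, and the median was 0.06. Nrip1, a corepressor of oestrogen receptor alpha and also its target, had 0.43 at its brighter probe and -0.27 at the other. Gata3, which acts with oestrogen receptor alpha in mammary epithelium, had 0.44 (0.39 and 0.49). Gata3 is also a marker of urothelium, whose 18 markers had a median of 0.23. The corepressor Tle3 had -0.16, and the coactivator Ncoa2 had -0.14, from -0.86 in male and 0.57 in female ureters.

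Of 29 genes known as oestrogen receptor targets, mostly from uterus and mammary cells, 27 were measured and 0 passed. Their median ratio was 0.09, and 7 were above 0 on both arrays, 4 below 0 on both, and 16 opposite. Of all features 21.7% were above 0 on both and 41.4% had the same sign on both, so opposite signs were the more common there too. Greb1, a target that follows oestrogen receptor alpha closely in uterus and breast cells, had levels of 526 and 501 in Rbpj-cKO ureters, against 529 and 457 in control ureters, which overlapped. Ltf, the lactoferrin gene, had levels of 770 and 2960 in Rbpj-cKO ureters, against 746 and 1019 in control ureters, with ratios of 0.05 and 1.54 (mean 0.79). Ltf is also a gene of neutrophils. Beside it, the 10 blood and immune cell markers had a median of 0.04 (male array -0.12, female array 0.17), with the neutrophil gene S100a9 at 0.32 and 1.07 and the red cell gene Slc4a1 at -0.63 and 1.49. The part of these markers in the Ltf value was not tested. The secreted glycoprotein gene Stc2 had a mean of 0.46 and the cyclin Ccnd1 one of -0.29. Fgf10, a mesenchymal growth factor, had levels of 2357 and 2322 in Rbpj-cKO ureters, against 4351 and 3891 in control ureters. Its ratios were -0.88 and -0.74, and the mean of -0.81 (SD 0.10, n = 2) had a limma adjusted p of 0.335.

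Of 20 progesterone receptor targets 19 were measured and 0 passed (median 0.03). Calca, which encodes the neuropeptide CGRP and calcitonin, the product that progesterone induces in rat uterus, had levels of 664 and 628 in Rbpj-cKO ureters, against 1413 and 997 in control ureters. Its ratios were -1.09 and -0.67 (mean -0.88; limma adjusted p = 0.297), and a dimmer probe had a mean of -0.13. Beside it, the 8 nerve and glia markers had a median of -0.13 (male array 0.11, female array -0.33), and their part in the Calca value was not tested. The activin antagonist Fst had -0.52, and the zinc finger gene Zbtb16 and the ligand Wnt4 had 0.38 and 0.31.

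Of 28 glucocorticoid receptor targets 27 were measured and 0 passed (median 0.06; male array 0.16, female array 0.00). Lcn2 had 0.43 and the transcription factor Klf9 0.41, while Angptl4 had -0.22 and the EGF receptor inhibitor Errfi1 had -0.17. The chaperone Fkbp5, a widely used read-out of glucocorticoid action, had levels of 6269 and 5149 in Rbpj-cKO ureters, against 5102 and 5644 in control ureters, which overlapped. Of 18 mineralocorticoid targets and sodium transport genes 15 were measured and 0 passed (median 0.09). The endothelin Edn1 had 0.50 (0.59 and 0.41) and the sodium channel subunit Scnn1b had 0.49 (0.25 and 0.72). The kinase Stk39 had -0.14 and the glucocorticoid-induced leucine zipper Tsc22d3 -0.11.

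Genes that make, convert or carry steroids held the widest ratios around the receptors. Of 31, 24 were measured and 0 passed (median 0.02). Akr1c18, which turns progesterone into a weaker product, had levels of 1440 and 1141 in Rbpj-cKO ureters, against 3500 and 2224 in control ureters. Its ratios were -1.28 and -0.96 (mean -1.12, SD 0.22, n = 2), 2.18-fold lower in Rbpj-cKO ureters (limma adjusted p = 0.0895). When every probe was tested on its own, with the same ratios, its limma adjusted p was 0.0368. In the other settings run with both arrays it was 0.0637 or more, with 0.578 in Agilent's processed signals and 0.99992 with median centring. Akr1c14, a related hydroxysteroid dehydrogenase, had -0.82 and -0.26.

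Sult1e1 and Serpina6 each turned on a single array. Sult1e1, the sulfotransferase that inactivates oestrogen, had levels of 5366 and 174 in Rbpj-cKO ureters, against 340 and 149 in control ureters. The male Rbpj-cKO RNA alone was high, and the ratios were 3.98 and 0.23 (mean 2.10, SD 2.65; limma adjusted p = 0.593). Serpina6, the plasma carrier of corticosteroids, had levels of 269 and 2105 in Rbpj-cKO ureters, against 564 and 303 in control ureters. Here the female Rbpj-cKO RNA was high, with ratios of -1.07 and 2.80, and a second probe gave -0.77 and 2.47.

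**Figure D5:**
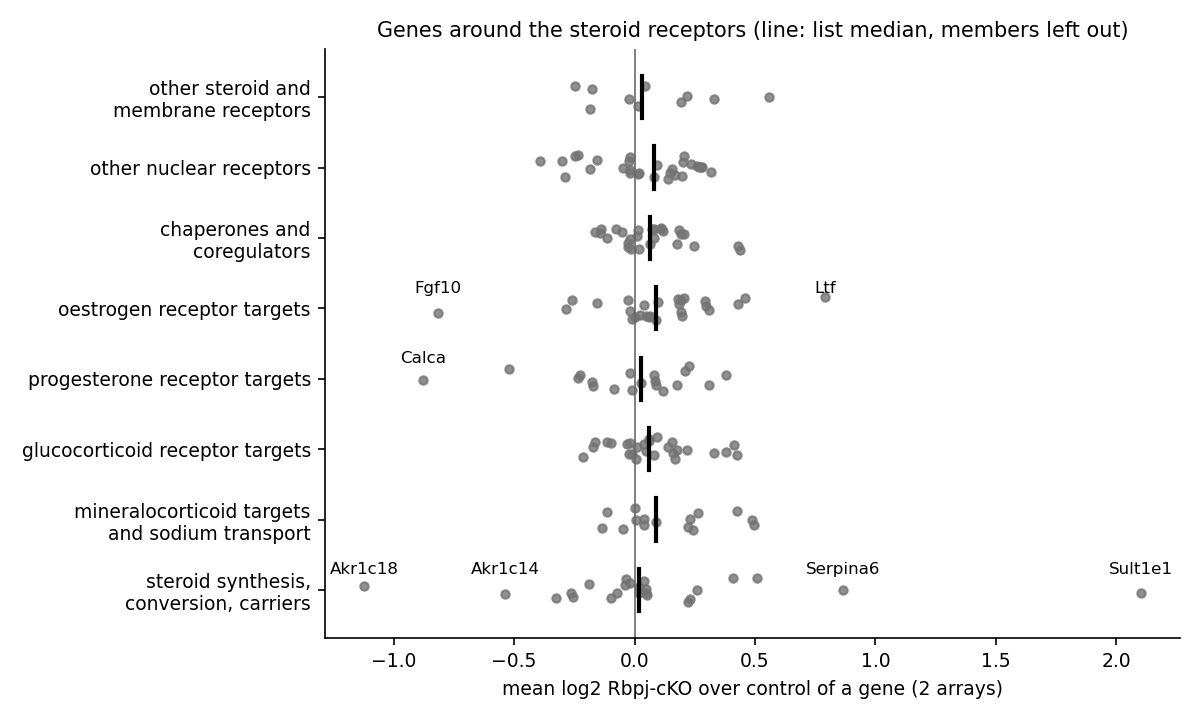
Mean log2 ratio of Rbpj-cKO over control (2 arrays) of each measured gene in 8 lists around the receptors, with the list median as a line and the 5 receptors left out. All 8 medians lie between 0.02 and 0.09, and the widest genes are Sult1e1 at 2.10 and Akr1c18 at -1.12.

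Markers of tissues that lie near the ureter and can express these receptors are given beside Esr1. Of 16 genital duct and genital mesenchyme markers 14 were measured, with a median ratio of 0.03. The duct ligand Wnt7a and Lhx1 were not among the features above background. Of 14 gonad and adrenal markers 11 were measured (median -0.02). There Amh, Cyp11b1 and Insl3 were not measured. The 13 markers of ureteric and other fibroblasts had a median of 0.21 (male array 0.08, female array 0.13), with Bmp4 at 0.56 and Foxd1 at -0.82. The 9 mesothelial markers had 0.31 (0.50 and -0.21), and the 10 smooth muscle markers had -0.32 (-0.43 and -0.31). Of 12 kidney markers 7 were measured (median -0.02), with 2 above 0 on both arrays, 3 below 0 on both and 2 opposite. Six2 had 1.48 and 0.86, while Cited1 had -0.70 and -0.49 and Eya1 had -0.38 and 0.46. Nphs1, Slc12a1, Slc34a1 and Umod were among those not measured. No marker passed the test (0 in these lists), and their part in the Esr1 value was not tested.

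Promoter windows of 300 bases (RefSeq, GRCm38.p6) were on hand for 4 of the receptors, 5 windows in all. The core motif bound by Rbpj, TGGGAA on either strand, matched 1 of them, that of Esr2, and 25.6% of the 32851 windows of the genome table. Neither Esr1 window held these letters, and a match or its lack describes the letters of that window only.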

How the data were processed

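Total RNA of dissected ureters was amplified and labelled with AlexaFluor555 or AlexaFluor647, per the labels' protocols. The deposited files give an intensity per spot as read by Agilent Feature Extraction 10.7.3.1, per the submitters' processing notes. Processed signals are, per the file headers, intensity values after background subtraction, detrending and dye normalization, and the spot ratios are log10 values, red over green. The deposited series table holds a score per probe, with no account of how it was made. Its values equalled the signed fold of the processed signals within 0.001 (log2) for 99.8% and 99.9% of 24991 single-spot probes above background, its medians were 1.0, and its handling of multi-spot probes is unknown.

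Mean signals were corrected with normexp (offset 50) and loess, with control spots at weight 0 and outlier spots left out, and spots of 1 probe were averaged. A probe entered if, in 1 genotype, most of its spots exceeded background clearly (Agilent's well-above-background flag) on each array, which left 20989 features, each with its brightest probe. Of 39429 probes 26412 were named through RefSeq accessions and 13017 kept the files' names. Ratios, turned to Rbpj-cKO over control, were fitted in R 4.3.3 with limma 3.58.1 (lmFit, eBayes) and p-values, all two-sided, were adjusted by Benjamini and Hochberg's method, a step first tested on simulated data. A bound for Esr1 probe 2, from channel values after Aquantile, equalled its mean ratio and so set no separate limit. The receptors and the gene lists were chosen with earlier results of these data known. All receptor probes are named, and from each list up to 4 genes, those past the test first and then the highest and the lowest; Greb1 and Fkbp5, and the markers Bmp4, Foxd1, S100a9 and Slc4a1, were added after their values were seen, and some genes that the rule names are not reported here. Alternatives were other normalizations, filters, probe rules, an intensity trend and leaving out each array.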

Additional observations from a re-analysis of the deposited data

Results flagged for a closer look

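Several genes had opposite directions on the male and the female array. These are differences between 1 array and another that also had the dyes swapped, and the difference between the sexes was not tested. In log2, male ratio first, Esr2 had -0.35 and 0.48, and Pgr had -0.38 and 0.38. Nr1d2 had -0.75 and 0.15, Ncoa2 had -0.86 and 0.57, Tsc22d3 had -0.265 and 0.0392, and Stk39 had -0.313 and 0.0412. The widest was Serpina6, with -1.07 and 2.80. For Tsc22d3 and Stk39 the opposite signs depended on the processing. Tsc22d3 had -0.21 and -0.12 in Agilent's processed signals, and Stk39 had -0.04 and -0.11 under median centring.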

How the results depend on the processing

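With 2 arrays, 1 residual degree of freedom and 10.3 prior degrees of freedom from limma, the count of features past the test moved with the processing. It was 27, 29 with an offset of 16, 26 where both channels had to be above background, 10 with probes averaged per gene, 41 with an intensity trend and 42 over single probes. It was 0 with median centring, with Agilent's processed signals, with the deposited series table and without a filter on dim probes, where 226, 843, 818 and 979 features had an unadjusted p under 0.05. Esr1 had a mean log2 ratio of 1.34, 1.96 in Agilent's processed signals, 1.99 in the series table and 1.36 with median centring. It was 0.82 over the mean of probes 1 and 2, since probe 3 did not pass the filter. When an array was left out it ranged from 0.93 to 1.76. Whether Esr1 passed the limma threshold also moved with the setting. Nothing is read from that, since the group was selected on these ratios. Nr3c1 had -0.12, but -0.0388 in Agilent's processed signals and again -0.0388 in the series table, and -0.15 to -0.08 with an array left out. With an array left out Esr2 ranged from -0.35 to 0.48, Pgr from -0.38 to 0.38 and Nr3c2 from -0.11 to 0.16. Of 163 genes in the lists 0 passed, with 14 at an unadjusted limma p under 0.05, beside 708 of all 20989 features. The lists were chosen with earlier results known, so nothing is read from that count. The only alternative with a call was testing single probes, with 1 (Akr1c18, limma adjusted p = 0.0368). The list genes named by the rule kept their sign in the settings run with both arrays, and Nr1d2, Ncoa2, Tsc22d3, Stk39 and Serpina6 changed it when 1 array was left out; Greb1 and Fkbp5, whose arrays had opposite signs, and Bmp4, Foxd1, S100a9 and Slc4a1 were not run under other settings. The limma fit is itself paired, since each ratio sets Rbpj-cKO against control RNA of 1 array, and no further replicate block could be added. The low signal of Nr3c2 and of the dimmer Esr1 and Pgr probes limits what could be seen for them.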
